A study of Mus musculus with 14 samples.

Results

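Cassette exons with 1 silent inclusion junction were exons that the reads joined to a neighbour on 1 side while the other side was almost unread. An included cassette exon has an inclusion junction on each side, so the exons were chosen by their junction reads, selected on the rule that, with both RNA-seq libraries added, the more read inclusion junction had at least 20 reads and the other had at most 10% of that number. The rule took 1378 of the 13189 cassette exon rows, which is 10.4% of all rows and 18.6% of the 7412 rows whose more read junction reached 20 reads. The 1378 rows held 1336 distinct exons in 1072 genes, because an exon has a row for each pair of flanking exon ends. The junction reads chose these exons, so the difference between the junctions of an exon is given as a description and was not tested.

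The whole spinal cord (WSC) transcriptome was measured by poly(A)-selected RNA-seq in 2 libraries of Mus musculus, 1 from a male and 1 from a female mouse, both 12 weeks old. Both mice were of genotype Tg(SOD1)2Gur/J, which carries a transgene of human wild-type SOD1, on a B6/SJL background, so no library came from a mouse without the transgene. With 1 mouse of each sex, sex and individual cannot be told apart. The 12 CLIP samples of the series were not used here. The libraries had 72006019 (male) and 65625173 (female) reads on genes and 2150069 and 1913572 reads on cassette exon junctions. Spinal cord markers had RPKM (reads per kilobase of exon, scaled to the reads of the library) of 9.20 and 10.4 for Chat in the male and female library, and of 42.4 and 49.4 for Hoxc8, a homeobox gene of the trunk. Of the other neuron markers chosen, Slc6a5 had 87.5 and 90.4, Slc5a7 had 28.0 and 46.9, and Isl1 had only 0.647 and 0.663.

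A splice junction joins the donor site at the end of an exon (GT in the intron) to the acceptor site at the start of the next (AG in the intron). A true cassette exon is either skipped or included with both of its junctions, so the junctions should carry like numbers of reads. A first exon has no upstream junction and a last exon has no downstream junction. An exon with tandem splice sites uses several donors or acceptors a few bases apart, and neighbouring alternative exons can join the same site to different partners. Each of these can leave a table entry with reads on 1 side only.

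Another splice site close to the silent one can be seen in the sequence, which is shown for 4 well-read exons with an annotated other site within a few bases, picked as examples. In each 30-base window, written 5′ to 3′ on the strand of the gene from the mm9 genome, capitals mark the AG of both acceptors or the GT of both donors. In all 4 the upstream dinucleotide belonged to the site with more reads and the downstream dinucleotide to the silent site.
Psap acceptors, chr10:59762197-59762226, plus strand: tcttgtccttcacAGcAGaatctggtccag
Nsf donors, chr11:103792024-103792053, minus strand: agtctggccaGTgaGTagctgtctgacttg
Serpine2 donors, chr1:79813283-79813312, minus strand: gagaccagggGTgaGTggttctcctattct
Aldoc donors, chr11:78138702-78138731, plus strand: ctgccagcagGTGTgtgctggggggttggg

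The Psap exon of 93 nt (chr10:59762215-59762307) had 275 and 237 reads on its upstream junction in the male and female library, and 3523 and 3143 on its downstream junction. Psap encodes prosaposin, the precursor of the lysosomal saposins. The 96-nt form, whose acceptor lies 3 nt upstream, had 2939 and 2412 reads on that side with the same downstream junction. The silent acceptor was therefore the minor member of a tandem pair and was still read in both libraries. It was the silent junction with the most reads of all, 512 in sum.

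The other exons of the set had silent donors with no read at all. In Aldoc, which encodes the brain aldolase of glycolysis, the 163-nt exon (chr11:78138551-78138713) had 3794 and 4016 reads upstream and 0 and 0 downstream. The 161-nt form, with its donor 2 nt away, had 3260 and 3203 reads downstream. In Serpine2, which encodes the protease inhibitor protease nexin-1, the 232-nt exon (chr1:79813299-79813530) had 1164 and 1282 reads upstream and 0 and 0 downstream, against 610 and 687 downstream for the 228-nt form. The read donor of the pair was again the one that ends the shorter exon.

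In Nsf, which encodes an ATPase of membrane fusion, the 90-nt exon (chr11:103792040-103792129) had 3499 and 2538 reads upstream and 0 and 0 downstream. Its 86-nt form, with the donor 4 nt away, had 411 and 376 downstream reads. Both donors together thus had fewer reads than the upstream junction of the same exon.

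**Figure D1:**
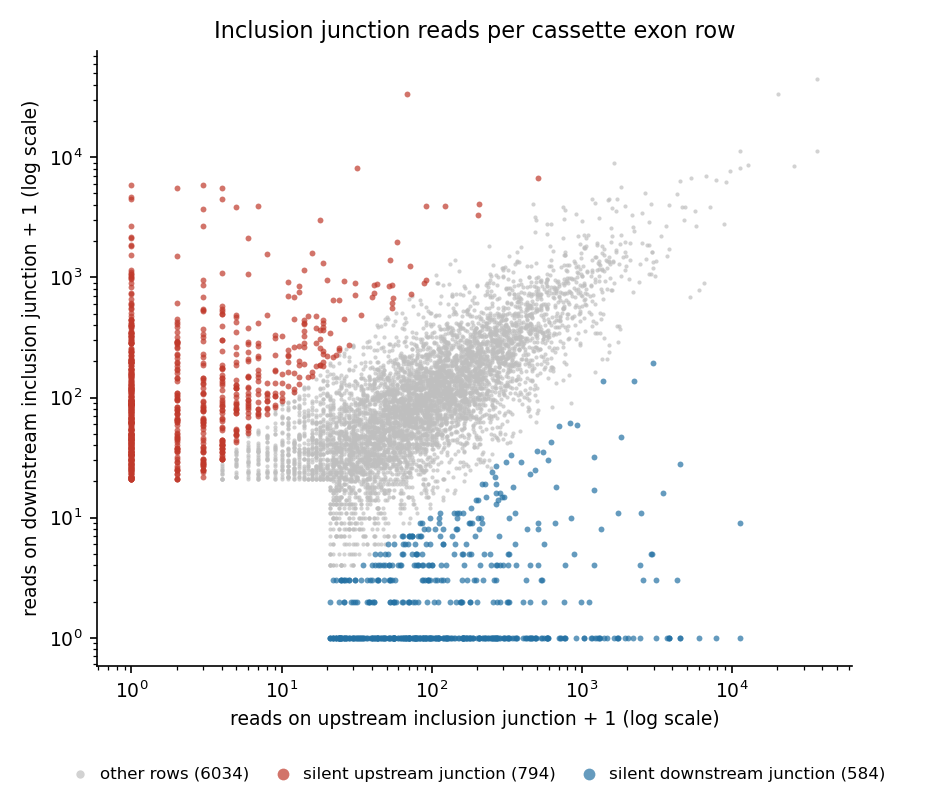
Reads on the upstream (x axis) and downstream (y axis) inclusion junction of each of the 7412 rows with at least 20 reads on the more read junction, both libraries added and 1 read added to each value for the log axes. The 794 rows with a silent upstream junction (red) and the 584 with a silent downstream junction (blue) lie apart from the 6034 other rows (grey) by the rule that selected them.

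The upstream junction was the silent one in 794 of the 1378 exons (57.6%) and the downstream one in 584. The quieter junction of the other rows was also more often the upstream one, in 54.7% of the rows without a tie. Both sides occurred on both strands, with 385 plus-strand and 409 minus-strand exons silent upstream and 314 and 270 silent downstream.

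In 697 of the 1378 exons (50.6%) the silent junction had no read in either library. Another 544 had 1 to 9 silent reads in sum and 137 had 10 or more. The silent junctions took 3343 and 3017 reads in all in the male and female library, against 267028 and 233765 on the read junctions. The quieter junction was the same in both libraries for 1376 of the 1378 exons, which the rule on the added reads nearly fixes. With the rule applied to each library alone, 941 exons met it in both.

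Depth and length of these exons were close to those of the other rows. The more read junction had a median of 99.5 reads (quartiles 50 and 261.8) against 109 in the other 6034 rows with at least 20 reads. Their median length was 107.5 nt against 105 nt, with 58 exons of up to 30 nt and 69 exons over 250 nt. The host genes had a median RPKM of 17.1 and 17.0, against 15.1 and 14.9 for the other rows. The length was a multiple of 3 in 539 exons (39.1%) and in 49.0% of the other rows.

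At the limits of the rule the values ran on without a gap. Gtf2h3 (69 nt, upstream 6 and 5 reads, downstream 56 and 54) lay just inside the 10% limit with an 82-nt exon of OTTMUSG00000004461 (7 and 8 upstream, 90 and 60 downstream). Thoc5 (125 and 123 upstream, 10 and 15 downstream) and Eif4g1 (12 and 11 upstream, 126 and 101 downstream) lay just outside it. At the read limit, Caprin1 (0 and 0 upstream, 11 and 9 downstream) and Chek1 (10 and 10 upstream, 0 and 0 downstream) were 2 of 14 exons with exactly 20 reads. Cd2ap (0 and 0, 16 and 3) and Dbndd2 (0 and 0, 9 and 10) were 2 of 13 rows with 19 reads that stayed out.

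The exons were placed on the mm9 genome and compared with the GENCODE M1 gene models, which hold 3 kinds of alternative that the selection did not use. A first exon (or last exon) was counted where a transcript starts (or ends) in an exon with the same read end. Another splice site was counted where an internal exon shares the read end but not the silent end. A neighbouring exon was counted where an intron joins the silent splice site to another partner site than that of the row. That partner can lie in another exon or be another site of the same flanking exon, which the count did not tell apart. Of the 1378 exons 1372 could be placed, and 1234 of these (89.9%) had at least 1 of the 3 at the silent end. The same count at their read end was 339 (24.7%). Among the 5985 other rows that were placed and had no tie it was 2079 (34.7%) at the quieter end and 1584 (26.5%) at the other. For a silent intron missing from the gene models, at least 1 kind follows almost always from these definitions. With the silent intron annotated, 612 of 722 exons had at least 1 kind. This held for 1922 of the 5687 other rows with an annotated intron at the quieter end.

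**Figure D2:**
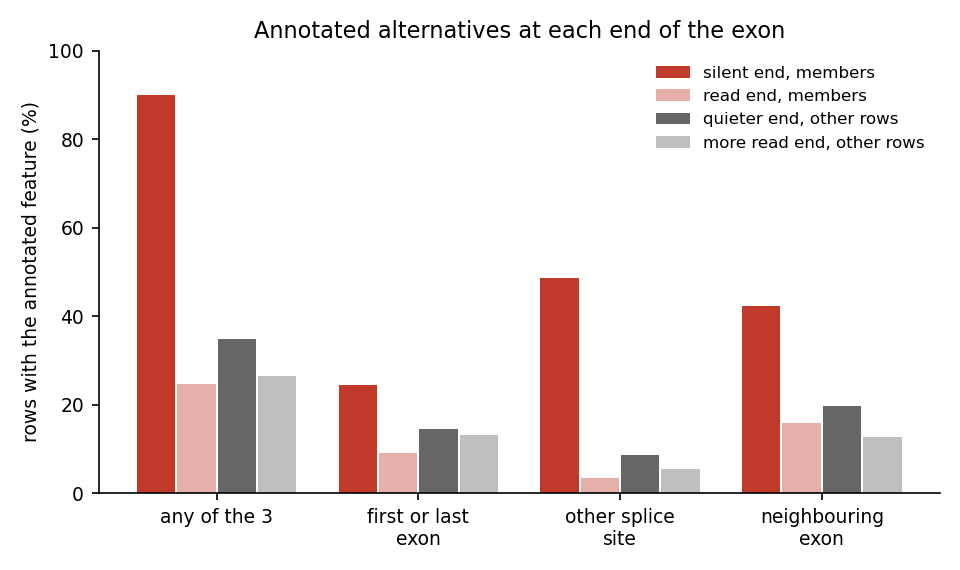
Percent of rows (y axis) with an annotated alternative of any kind or of each kind (x axis) at the silent and read end of the 1372 placed exons and at the 2 ends of 5985 other rows. The silent end stands at 89.9% for any of the 3, and the 3 other bars of that group lie between 24.7% and 34.7%.

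Another splice site was the most frequent kind, in 668 of the 1372 exons (48.7%) at the silent end, against 3.50% at the read end and 8.74% at the quieter end of other rows. A neighbouring exon was found in 581 (42.3%), against 15.96% and 19.7%. A first or last exon was found in 335 (24.4%), against 9.04% and 14.4%. The kinds overlapped, with 290 exons holding 2 kinds and 30 holding all 3. Another site was the sole kind in 452 exons (32.9%, against 4.95% at the quieter end of other rows) and a neighbour in 397 (28.9% against 14.2%). A first or last exon was the sole kind in 65 (4.74%), a lower share than the 8.34% of other rows. Both sides had like shares, 90.3% of the 790 placed exons silent upstream and 89.5% of the 582 silent downstream.

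The junction that was silent was itself often missing from the gene models. The row's own intron on the silent side was annotated in 722 of 1372 exons (52.6%), whereas the intron on the read side was annotated in 97.4%. The other rows had 95.02% at the quieter end. The silent splice site was annotated, with some partner, in 68.7%.

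Where another splice site was annotated, it was often close. The distance from the silent site to the nearest one had a median of 19 nt (quartiles 4 and 64), and 236 of the 668 (35.3%) lay within 6 nt. A further 114 lay more than 100 nt away, the farthest at 2752 nt. In Hspa8 the other donor lay 496 nt downstream, past the flanking acceptor of the row. Acceptors and donors had different preferred spacings. Among the 372 exons with a silent acceptor the most frequent distance was 3 nt, in 50 exons, the spacing of the NAGNAG tandem seen in Psap. Among the 296 with a silent donor it was 4 nt, in 76 exons, the spacing of the tandem donors of Nsf and Serpine2. The other rows with another annotated site had 61 of 333 acceptors at 3 nt but 10 of 190 donors at 4 nt. The distance was a multiple of 3, so that both forms keep the same frame, in 40.9% of the acceptors and 26.7% of the donors. Silent acceptors had the nearest other site outside the exon in 238 of 372, and silent donors had it inside the exon in 182 of 296, so for both the silent site was mostly the downstream one of the pair.

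**Figure D3:**
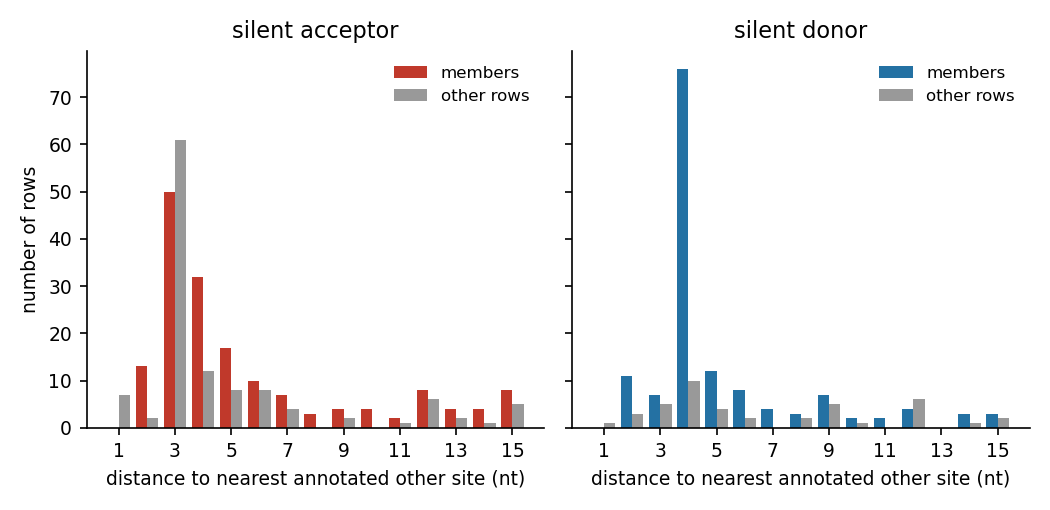
Number of rows (y axis) by the distance in nt from the silent or quieter splice site to the nearest annotated other site (x axis, 1 to 15 nt), for acceptors (left) and donors (right), in the selected exons (coloured) and other rows (grey). The selected exons peak at 3 nt for acceptors with 50 rows and at 4 nt for donors with 76 rows.

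These other sites were read in the same tissue. In 481 of the 668 exons (72.0%) another exon of the table with the same read end had at least 20 reads on its own site, against 28.3% of the 523 other rows with an annotated other site. The silent sites of exons with an annotated other site were also further from the sequence of well-read sites. A position matrix built from the rows whose junctions were within a factor of 2 (smaller at least 50% of larger) gave the silent acceptors of this kind, counted once per site, a median score of 5.19 bits and the silent donors 4.70 bits, against 9.05 and 7.83 bits for the acceptors and donors of other rows. The 5810 acceptors and 5758 donors of other rows include the 3716 and 3711 sites that built the matrix. The nearest other site scored higher than the silent one in 255 of 372 acceptors (68.5%) and 191 of 296 donors (64.5%). Silent sites whose sole sign was a neighbouring exon scored near the other rows, with medians of 9.44 bits for acceptors and 8.49 bits for donors.

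Ywhae shows a silent acceptor at a larger distance. It encodes the adaptor protein 14-3-3 epsilon. The sites are printed as 20 intron and 3 exon bases with the AG in capitals.
Ywhae silent acceptor: aaatggtggaatcaatgaAGaaa
Ywhae read acceptor, 20 nt upstream: ttttaccatttcctgcatAGaaa
The 180-nt form (chr11:75565403-75565582) had 0 and 0 reads upstream and 2441 and 2016 downstream, and the 200-nt form had 638 and 524 reads on its upstream junction. The silent acceptor scored -4.62 bits and the read one 8.17 bits. A transcript of Ywhae also starts in an exon with the same donor.

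Mbp, which encodes myelin basic protein of oligodendrocytes, had the most reads of all, in exons of each of the 3 kinds. A 431-nt exon (chr18:82723712-82724142) had 44 and 23 reads upstream and 18535 and 15131 downstream, and it is a first exon in the gene models. A 128-nt form (chr18:82748328-82748455) had 5827 and 5495 reads upstream and 0 and 0 downstream, while the 123-nt form with the donor 5 nt upstream had 4053 and 4129. That 123-nt exon in turn had a row from a more distant upstream exon with 9 and 22 upstream reads, and from the nearer 33-nt exon it had 5827 and 5495. The same exon was thus silent in 1 row and read in another because its partner changed.

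Exons with an annotated first or last exon at the silent end had one-sided reads by the rule. Whether a transcript start or end left the junction silent was not tested. Of the 194 exons silent upstream with a first exon at that end, the annotated first exon reached past the silent acceptor in 159, by a median of 238 nt. Of the 141 exons silent downstream with a last exon, it ran past the silent donor in 107, by a median of 574 nt. In Atp5j, which encodes a subunit of the mitochondrial ATP synthase, the 175-nt exon (chr16:84835054-84835228) had 68 and 54 reads upstream and 2060 and 1895 downstream. In Ociad1, an endosomal protein gene, the 176-nt exon (chr5:73697817-73697992) had 1528 and 1435 reads upstream and 96 and 96 downstream. The Ociad1 donor was not idle, since it joined a 153-nt exon in another row with 829 and 741 reads. A 221-nt form of the exon, with its donor 45 nt away, had 760 and 589 reads downstream.

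In Ap2m1, which encodes the mu subunit of the AP-2 clathrin adaptor, the 117-nt exon (chr16:20537691-20537807) had 2163 and 2115 reads upstream and 1 and 1 downstream. The donor that was almost unread has a sequence close to the consensus.
Ap2m1 silent donor: cggGTaagt
It scored 10.2 bits, above the median of 7.83 bits for donors of other rows. The exon body of Ap2m1 had 140 and 153 reads, few beside the upstream junction. Near copies of both its junctions lie elsewhere in the genome.

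Other exons among the most read on either side had the following counts. Hspa8, the constitutive HSC70 chaperone gene, had 7121 and 4140 reads upstream and 7 and 1 downstream of its 210-nt exon (chr9:40610001-40610210), with near copies of both junctions elsewhere in the genome. Gnas, the gene of the stimulatory G protein alpha subunit, had 2510 and 1965 reads upstream and 12 and 15 downstream of its 73-nt exon (chr2:174159713-174159785). The Gnas donor joined a 45-nt exon instead, with 1923 and 1440 reads. Ndufa13, a gene of respiratory complex I, had 0 and 0 upstream reads and 2523 and 2172 downstream reads at its 191-nt exon (chr8:72425441-72425631). Gpsn2, a gene of fatty acid elongation, had 0 and 3 reads upstream and 3142 and 2383 downstream of its 70-nt exon (chr8:86096448-86096517), and 303 and 197 reads skipped it. A near copy of the read junction of this exon lies elsewhere in the genome. Its annotated other acceptor, 26 nt away, had 1 and 0 reads.

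**Figure D4:**
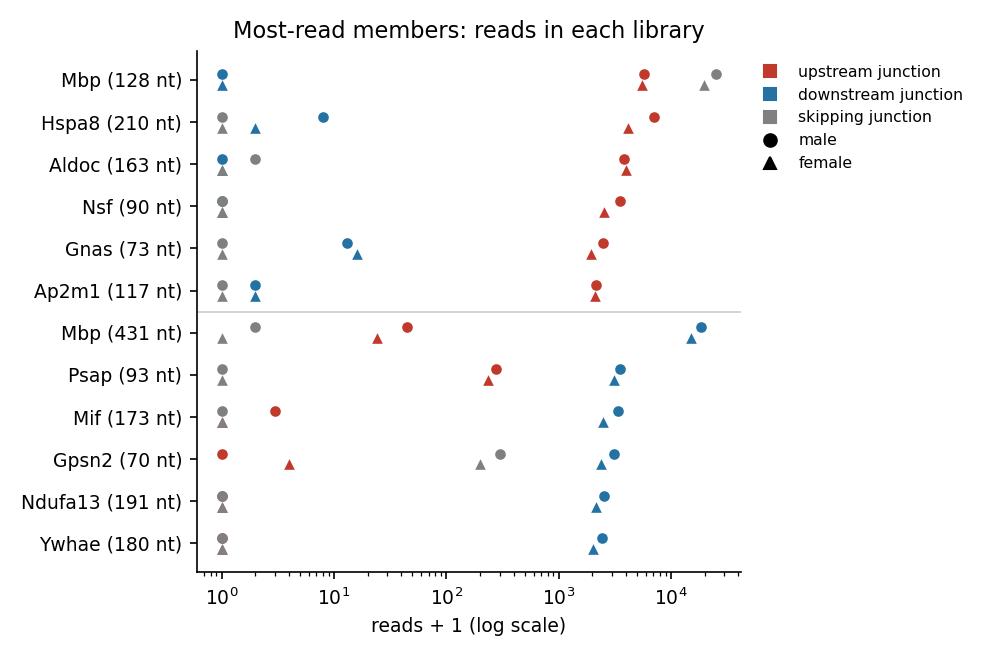
Reads plus 1 (log axis) on the upstream, downstream and skipping junction of the 6 most-read exons silent upstream (below the line) and the 6 silent downstream (above it), 1 per gene and side, with circles for the male and triangles for the female library. The libraries lie close together for the read junctions, while the silent junctions range from 0 to 275 reads and marks at 0 reads cover each other.

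Other partners of the silent site could be followed in the table itself. In 161 of the 1372 placed exons (11.7%), the same exon had another row with at least 20 reads on the silent side, against 3.48% of the other rows. That row had another flanking splice site, in another exon or in the same flanking exon. With every junction of the table that uses the silent splice site, skipping junctions included, it was 381 (27.8%) against 6.30%. Among the 581 exons with an annotated neighbour it was 366 (63.0%), against 334 of the 1180 other rows with one (28.3%).

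In 13 genes 1 silent junction was shared by an exon on each side, so that both exons were selected for the same missing link. These genes were found after the values were seen. In Gria3, which encodes an AMPA receptor subunit, the flip and flop exons are known to be used in the alternative, and both are 115 nt long. The upstream exon of the pair (chrX:39007987-39008101) had 55 and 49 reads on its outer junction and the downstream one (chrX:39022678-39022792) had 46 and 63, while the junction between them had 2 and 0. In U2af1, which encodes the small subunit of the splicing factor that binds the acceptor AG, the outer junctions of a pair of 67-nt exons had 59 and 26 and then 121 and 102 reads, and the junction between them 2 and 6. Flot2, a membrane scaffold gene, had a pair of 91-nt exons with 75 and 36 and then 76 and 55 outer reads and 8 and 0 between them. These were the 3 pairs of equal length among the 13.

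The gene lists for this tissue held few of the exons. In the list of synapse and adhesion genes 16 of 86 rows with at least 20 reads were selected (18.6%), in the list of cytoskeleton and axon genes 10 of 93 (10.8%), in that of RNA-binding and splicing genes 9 of 40 (22.5%), in that of myelin genes 4 of 23 (17.4%) and in that of ion channels and pumps 4 of 27 (14.8%). The share over all rows with at least 20 reads was 18.6%. No list was tested.

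Among synapse and adhesion genes, Adam22, the gene with the most selected rows (7), encodes a neuronal receptor of the LGI proteins. Its 18-nt exon (chr5:8107002-8107019) had 87 and 119 reads upstream and 0 and 0 downstream in the row that ends at the farther acceptor, and 111 and 95 in the row that ends at the nearer one. Dlg2 and Dlg4 encode PSD-93 and PSD-95, scaffolds of the postsynaptic density. The 46-nt exon of Dlg2 (chr7:99566598-99566643) had 130 and 193 reads upstream and 0 and 4 downstream. The 165-nt exon of Dlg4 (chr11:69840425-69840589) had 190 and 110 upstream and 5 and 9 downstream, and its 66-nt form, with a donor 99 nt away, had 183 and 178. Nrcam, a cell adhesion gene of the node of Ranvier, had 0 and 0 reads upstream and 119 and 173 downstream of its 153-nt exon (chr12:45685822-45685974).

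Of the 10 exons of cytoskeleton and axon genes, 9 had an annotated neighbour and none another splice site. Epb4.1l1 encodes a protein that links the membrane to actin. Its 87-nt exon (chr2:156359517-156359603) had 517 and 373 reads upstream and 4 and 0 downstream, and its donor joined an 84-nt exon with 729 and 564 reads. In Ank1, which encodes the membrane linker ankyrin-1, the 125-nt exon (chr8:24252068-24252192) had 199 and 153 downstream reads. Its upstream junction had 4 and 0 reads from the nearer donor and 309 and 256 from the farther one. In Mapt, the tau gene, the 66-nt exon (chr11:104156173-104156238) had 29 and 10 upstream reads in 1 row and 136 and 108 in another, with 379 and 302 downstream. Mtss1, which encodes an actin-binding protein, had 63 and 48 reads upstream of its 120-nt exon (chr15:58779878-58779997) and 6 and 3 to the next alternative exon, but 60 and 33 to the exon after that. In Clasp1, which encodes a microtubule plus-end protein, the 63-nt exon (chr1:120432712-120432774) had 0 and 0 reads from the distant upstream exon, 23 and 7 from the 108-nt exon between them, and 21 and 18 downstream. In each of these exons the silent splice site was joined more often to another partner site than to the one in its row.

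Of the 9 exons of RNA-binding and splicing genes, 4 had another annotated splice site, 2 a neighbour, 1 a first exon and 2 no sign. Hnrnph1, which encodes a splicing regulator, had 0 and 0 upstream and 572 and 530 downstream reads at its 92-nt form (chr11:50195008-50195099), and 193 and 153 upstream reads at the 139-nt form. Hnrnpc and Hnrnpa1 encode abundant proteins of heterogeneous nuclear ribonucleoproteins. Hnrnpc had 4 and 8 reads upstream and 329 and 431 downstream of a 530-nt exon (chr14:52717690-52718219) with 84 and 74 body reads, and Hnrnpa1 had 87 and 110 upstream and 2 and 0 downstream of a 156-nt exon (chr15:103074056-103074211) with 7 and 1 body reads. Neither of the last 2 had an annotated sign, and both had a near copy of the silent junction elsewhere in the genome.

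In the other lists, the 36-nt exon of Mbnl1 (chr3:60425345-60425380), a splicing factor gene counted with the myelin list, had 135 and 133 reads upstream and 8 and 4 downstream. Among ion channel genes Gria2, another AMPA receptor gene, had 107 and 105 reads upstream of its 115-nt exon (chr3:80495242-80495356) and 3 and 6 to the other 115-nt exon. Itpr1, the gene of an intracellular calcium channel, had 0 and 2 upstream and 21 and 6 downstream reads at a 51-nt exon (chr6:108382640-108382690).

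No annotated alternative was found for 138 of the 1372 exons (10.1%), 77 silent upstream and 61 silent downstream, and in 110 of them the silent intron itself was annotated. The most-read were in Mif, Npm1 and Gpsn2. Mif, which encodes macrophage migration inhibitory factor, had 2 and 0 reads upstream and 3409 and 2506 downstream of a 173-nt exon (chr10:75322432-75322604), with 76 and 61 body reads. Near copies of both its junctions lie elsewhere in the genome, as do those of the exons of Npm1 and Gpsn2. Npm1, which encodes the nucleolar protein nucleophosmin, had 1564 and 1346 upstream and 2 and 2 downstream of a 94-nt exon (chr11:33060828-33060921). In Gpsn2 a 52-nt exon (chr8:86097770-86097821) had 138 and 66 upstream and 2145 and 1910 downstream. The silent sites of Mif and Npm1 kept the common splice site letters.
Mif silent acceptor: ccgcccctccccccacccAGtac
Npm1 silent donor: tagGTaggt

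A 74-nt sequence across each junction was then compared with the genome, since reads that also fit elsewhere were removed by the authors before counting. An unspliced near copy, with at least 70 aligned bases and at most 4 mismatches, was found for the silent junction in 45 of the 138 exons without a sign (32.6%) and in 27 of the 1234 with one (2.19%). The quieter junction of other rows had one in 4.53%. The read junction of the exons without a sign had one in 38 of 138 (27.5%), so copies were frequent on both sides of these exons. Over all 1372 placed exons a copy was more frequent for the read junction, in 148 (10.8%), than for the silent one, in 72 (5.25%). The part of such copies in the silent junctions was not tested.

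Exon bodies gave another readout of the same exons. In exons of at least 100 nt, reads per start position inside the exon were divided by those on the read junction, so that 1 stands for equal coverage. The median ratio was 1.10 over 771 of the selected exons (1.08 in the male and 1.10 in the female library) and 1.04 over 3225 other rows. It was 1.20 with a first or last exon, 1.07 with another site and 1.23 with a neighbour. For the 77 exons without a sign it was 0.686, and for the 27 of these with a copy of the silent junction 0.451. The middle part of the values of the 771 exons ran from 0.605 to 1.92, on both sides of equal coverage.

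The inclusion rate of an exon depends on which junction is used. It was computed as reads on the read junction over that number plus skipping reads, and by the usual formula as the mean of both inclusion junctions over that mean plus skipping reads. Forms that differ at the silent end can share the read junction, so the rate from it counts all of them together. In bulk tissue a rate pools all cell types, and fewer cells of a type and less RNA per cell cannot be told apart. No skipping read was seen for 647 of the 1378 exons (47.0%) and for 39.5% of the other rows, and the rates of such exons were 100% by either formula. For the 354 exons with at least 10 skipping reads the median rate was 71.7% from the read junction (72.9% and 72.6% in the male and female library, SD 0.25, n = 2) and 56.7% by the mean of both (57.8% and 57.7%, SD 0.0946). The same medians for the 1984 other rows with at least 10 skipping reads were 70.1% and 64.8%. A gap of at least 10 percentage points between the formulas was present in 227 of the 1378 exons (16.5%) and in 2.44% of the other rows, and the largest gap was 17.2 points. This gap follows from the rule, since a silent junction adds almost nothing to the mean.

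The exons were then compared between the libraries on the share of read-junction against skipping reads. The rule used the sum of the former over both libraries, and neither the skipping reads nor the split between libraries. The test was a two-sided Fisher's exact test per row with Benjamini-Hochberg adjustment over all 9081 rows with at least 10 such reads in each library. It compares these libraries, not the sexes. At FDR 0.1 it called 32 of 1312 tested exons (2.44%), beside 3.08% of all rows tested. The rate was higher in the female library for 21 of the 32 and in the male library for 11. The same split for all called rows is not given, so nothing is read from it. Without adjustment, 125 of the 1312 had p under 0.05, beside 1039 of all 9081 rows tested. Other settings called 29 exons beside 2.24% of all rows (no minimum of reads), 31 beside 3.63% (at least 20 reads in each library), 41 beside 4.03% (all inclusion and skipping tags) and 25 beside 1.92% (FDR 0.05).

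The 5 exons with the smallest adjusted p were in Mbp, Dctn6, Ncdn, A730017C20Rik and Gls2. For the 128-nt exon of Mbp the rate from the read junction was 18.8% (95% Wilson interval 18.4 to 19.3) in the male and 21.7% (21.2 to 22.2) in the female library, with 25135 and 19880 skipping reads (Fisher's exact test, adjusted p = 1.70e-13). The 123-nt form shares this upstream junction and had the same rate, and no read used the donor of the 128-nt form. The Mbp rate is thus not one of the 128-nt form alone. In Dctn6, a dynactin subunit gene, a 116-nt exon (chr8:35168040-35168155) had a rate of 4.93% (3.14 to 7.66) and 23.0% (18.8 to 27.9), from 18 and 75 reads on the read junction against 347 and 251 skipping reads (Fisher's exact test, adjusted p = 1.79e-09). The downstream junction of this exon is shared with forms of 113 nt and 54 nt, which had the same rate. The silent acceptor of the 116-nt form had 0 and 0 reads and the other acceptor 3 nt away 17 and 16. The reads on that acceptor did not follow the difference in the downstream junction.

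In Ncdn, which encodes the neuronal protein neurochondrin, a 70-nt exon (chr4:126430215-126430284) had 32.0% (30.3 to 33.8) and 42.7% (40.3 to 45.0), from 855 and 719 against 1816 and 966 reads (Fisher's exact test, adjusted p = 1.79e-09). The gene model has a first exon at its silent end. A 51-nt exon of A730017C20Rik (chr18:59225489-59225539) had 100% and 84.9% (78.0 to 89.9), with 205 and 118 against 0 and 21 reads (Fisher's exact test, adjusted p = 1.49e-06). In Gls2, a glutaminase gene, a 125-nt exon (chr10:127632112-127632236) without an annotated sign had 73.5% (56.9 to 85.4) and 11.4% (4.54 to 26), from only 25 and 4 against 9 and 31 reads (Fisher's exact test, adjusted p = 7.91e-05). The Gls2 difference was the widest of the 5 and rested on the fewest reads.

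The balance of the upstream against the downstream junction was also compared between the libraries, in 7410 rows with at least 10 inclusion junction reads in each. By Fisher's exact test, 18 of 1284 tested exons (1.40%) were called, beside 8.08% of all rows tested. The rule took the sums of these reads, which the test holds fixed while it compares their split between the libraries. In 697 of the exons no silent read could differ, so nothing is read from the lower share. Without adjustment, 69 of the exons had p under 0.05, beside 1368 of all 7410 rows tested. Other settings called 16 exons beside 6.24% of all rows (no minimum of reads), 18 beside 8.82% (at least 20 reads in each library) and 10 beside 5.1% (FDR 0.05).

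The called exons with the smallest adjusted p differed in the reads of the silent junction, which in the first 2 was read in the male library alone. Ccdc28a (200 nt, chr10:17950225-17950424) had 23 and 0 upstream reads with 119 and 139 downstream (Fisher's exact test, adjusted p = 4.90e-05). Cmtm5, a gene expressed in oligodendrocytes, had 18 and 0 upstream with 692 and 619 downstream at a 266-nt form (chr14:55556619-55556884), while the 153-nt form had 573 and 701 upstream (Fisher's exact test, adjusted p = 0.00172). Nrbp1 (70 nt, chr5:31546136-31546205) had 1 and 14 downstream with 177 and 107 upstream (Fisher's exact test, adjusted p = 0.00222). R3hdm2 (78 nt, chr10:126899262-126899339) had 1 and 17 upstream with 125 and 104 downstream (Fisher's exact test, adjusted p = 0.00317). The fifth was the 52-nt exon of Gpsn2 described above (Fisher's exact test, adjusted p = 0.00337).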

How the data were processed

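Poly(A)-selected RNA of 2 mouse spinal cords was sequenced. According to the methods, the authors cut the reads to 74 nt, aligned them to mm9 and exon junctions by OLego, kept unambiguous reads and counted them with Quantas. The authors deposited whole-number counts of reads per cassette exon (exon body, 2 inclusion junctions, skipping junction) and, per gene, counts and RPKM (scaled by the authors to exon length and reads on genes). The authors' own inclusion rate column was not used, nor were the 12 CLIP samples.

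Rows of both libraries were joined by name and placed on the NCBIM37 (mm9) genome from the gene-relative positions in the names. Of 13189 rows 13114 were placed, and 13109 of these had AG and GT at the exon ends. Rows sharing an upstream intron had equal counts in the first junction column in 660 of 660 pairs, so that column is the upstream one in transcription. Splice site scores were log2 odds from a position matrix (pseudocount 1) of 3 exon and 6 intron bases (donor) or 20 intron and 3 exon bases (acceptor). Junction sequences were aligned with minimap2 2.31-r1302. Fisher's exact tests used scipy 1.17.1 and were tested on simulated data. The tests compare 2 libraries. Reads carry no molecular identifiers, so intervals and p-values cover counting error only. An error over the libraries is an SD with n = 2.

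The exons, gene lists, tests and alternatives were chosen with earlier results of these data known. Named exons were the 6 most-read per silent side (1 per gene), the 3 most-read per kind of annotated sign, up to 4 per gene list, the 5 smallest adjusted p per test, the rows at the limits and Clasp1. The shared silent junctions, copies of junctions and splice site scores were added after the data were seen. Alternatives were other read minimums, other ratios, single libraries, distinct exons, other inclusion formulas, other coverage minimums, FDR 0.05, protein-coding transcripts and ends within 3 nt.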

Additional observations from a re-analysis of the deposited data

How the results depend on the processing

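The number of exons stayed within 1.5 times of 1378 under every alternative run, from 1140 to 1212 in a single library. The upstream share of 57.6% was 57.5% over distinct exons, 56.0% with a minimum of 50 reads, 57.0% with a ratio of 5%, and 57.28% to 57.34% in a single library. The median inclusion rate from the read junction (99.5%) was 99.1% by the mean of both junctions, 99.8% with the authors' inclusion and skipping tags, 99.6% with a minimum of 50 reads, 100% in either library alone, and 20% from the silent junction alone. The share with an annotated alternative (89.9%) was 87.2% with ends within 3 nt, 85.4% with protein-coding transcripts, 91.3% with a minimum of 50 reads, and 88.7% to 89.4% in a single library. The share with another read row of the same exon (11.7% of the 1378) was 14.3% with a minimum of 10 reads, 9.51% with at least 50% of the reads of the read junction, 8.93% to 9.94% in a single library, and 27.7% with any junction to the silent site. The 18 calls on the junction balance became 10 at FDR 0.05. The 32 calls against skipping ranged from 25 to 41. The cause of these shifts was not tested. The last neighbour measure, the silent-junction rate and the single-library annotation shares were added after the data were seen.

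No paired analysis was possible because the RNA-seq samples form 1 group of 2 libraries, and the CLIP groups that share replicate numbers were not used. The tests between libraries need both and were not run without one. Groups of 2 are too small for a check of single samples. Exons under 20 reads were not examined, and a silent junction can hold up to 10% of the reads of the other.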
